A study of Mus musculus with 8 samples.

Results

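The phase II conjugating enzymes of the Gst, Mgst, Ugt1, Ugt2 and Sult families were followed in lineage-depleted (Lin-) bone marrow (BM) cells, in hepatocytes that formed from them in a recipient liver, and in primary hepatocytes of the mouse. Members were all genes whose name on an array began with Gst and a class letter (alpha, kappa, mu, omega, pi, theta or zeta), or with Mgst, Ugt1, Ugt2 or Sult. Of 65438 gene names on 2 array designs, 56 met this rule, which were 21 Gst, 3 Mgst, 6 Ugt1, 9 Ugt2 and 17 Sult genes.

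RNA was measured on 8 single-colour Agilent arrays, with 2 arrays for each of 4 groups, and per the study's legends each array held RNA pooled from several mice. Lin- BM cells, labelled as the negative control, came from young adult female transgenic mice on a C57BL/6J background that express eGFP in most tissues. BM-derived hepatocytes were eGFP+ cells sorted from collagenase-perfused livers of young adult male hemophilia A mice, which carry the F8tm1Kaz allele of coagulation factor VIII, 1 month or 5 months after these recipients had been given acetaminophen to injure the liver and had received the Lin- cells. The eGFP gate itself selects cells that carry the donor marker whatever their type, which includes donor cells fused with recipient cells. By the study's chromosome staining, a minority of the sorted cells were such fusion hybrids with a recipient Y chromosome, and fewer were found at the later time. RNA from recipient nuclei in these hybrids cannot be told apart on the arrays, and the part of the hybrids in the levels below was not tested. Per the study's methods a slow spin before the sort set hepatocytes apart from non-parenchymal cells, and the sorted cells were stained for albumin. Primary hepatocytes were labelled as the positive control, and the strain, sex and age of their donors were not given in the sources used here. Lin- cells (replicates 3 and 4) and 1-month cells (replicates 1 and 2) shared 1 slide and array design, whereas primary hepatocytes (replicates 2 and 4) and 5-month cells (replicates 1 and 3) shared another. Within each slide all probes of its design were compared, which read 46 members with 60 probes on the first slide and 52 members with 77 probes on the second. Between slides only probes of identical sequence were compared, which read 29 members, and slide, array design and group cannot be told apart there.

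Phase II enzymes attach a polar group to drugs, hormones and products of metabolism so that these can leave the cell in bile or urine. Glutathione S-transferases (Gst) and the membrane-bound Mgst proteins use glutathione, UDP-glucuronosyltransferases (Ugt) use UDP-glucuronate, and sulfotransferases (Sult) use the sulfate donor PAPS. The hepatocyte is the main site of all 3 reactions, and several members are also known from other cells, such as Gsto1, Gstm5 and Mgst2. Glutathione conjugation by hepatocytes detoxifies the reactive product of acetaminophen, the drug used here for injury, while glucuronidation and sulfation clear the drug itself.

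The families are built differently in the genome, and this set what a probe could read. The Ugt1a enzymes share the exons of their C-terminal part and differ in a first exon that each has for itself, so a probe in a first exon reads few enzymes and a probe at the shared end reads them together. Per the annotation in the array files, 7 of 60 member probes on the first design and 12 of 77 on the second listed more than 1 gene. The probes that separate these readings are shown as stretches of 30 of their 60 bases, 5′ to 3′. The Ugt1a10 probe and the Ugt1a9 probe of the other design share a run of 13 bases, given in capitals, and the probes named Ugt1a6b on both designs share a longer run of 39 bases, of which the part inside each stretch is in capitals.
Ugt1a10, second design, chr1:89952720-89952779 (NCBI37/mm9): tattttttcaaAACTGCTGTTGAAattgcc
Ugt1a9, first design: ctactttttaagAACTGCTGTTGAAgttgc
Ugt1a6b, first design, shared end of 8 listed Ugt1a genes: ttgtgccggaatttgatgaaaACCAAAGTA
Ugt1a6b, second design, chr1:90115493-90115552 (NCBI37/mm9), 4 listed Ugt1a genes: ACCAAAGTATGTTCTAAGGCAAGTACATCT
The brighter Ugt1a10 probe, on which the largest difference of a tested member on the second slide was read, lay directly beside the first one. Its place was chr1:89952780-89952839, and it listed Ugt1a10 and Ugt1a9.
Ugt1a10, brighter probe: acagacctctttagcccagtgtctatttgg
Members whose sequence was identical on both designs could be followed over all 4 groups. Mgst2, Ugt2b35 and Sult2a7 carry differences between slides described further on, Sult3a1 differed between arrays of a group, and the last probe was named Ugt2b37 on the first design and Ugt2b36 on the second, with both genes listed.
Mgst2, chr3:51486449-51486508 (NCBI37/mm9): agattcctgaacgaatacctggactttcat
Ugt2b35, chr5:87441721-87441780 (NCBI37/mm9): ctttatgttttctttttgatcacacataca
Sult2a7, chr7:15050514-15050573 (NCBI37/mm9): gcttttgataaagtgtaccaggagaaaatg
Sult3a1, chr10:33599125-33599184 (NCBI37/mm9): gtagaatattaatcaccacgtgaataaacc
Ugt2b36 or Ugt2b37, chr5:87495455-87509913 (NCBI37/mm9, a place that spans an intron): aagtcatagacaatcctttctataaagaga

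All levels below are log2 signals minus the 75th percentile of the array, so that 0 is the signal that 1 in 4 probes of the array exceeded. A probe was called detected where the scanner software marked it as well above background, and this held for 47.7 to 58.6% of probes over the 8 arrays. The 1-month arrays were dimmer, with upper quartile signals of 75.5 and 89.5 against 122 to 193 on the others. No spot was saturated. Of the hepatocyte markers, 7 of 7 tested rose between Lin- and 1-month cells, from mean levels of -5.81 and -5.70 to 6.85 and 7.01, and 0 of 8 were called between primary and 5-month cells. Of 8 blood progenitor and leukocyte markers, 7 fell at 1 month, from mean levels of 4.69 and 4.37 to -1.84 and -1.74, with 6 still detected on both 1-month arrays. Between primary and 5-month cells 1 of 6 tested markers of this list was called, namely Gfi1b, which was undetected in primary hepatocytes at -6.42 and -6.20 and at -3.54 and -3.53 in 5-month cells, at least 1.68-fold higher. Markers of other liver cells were also read at 1 month. Of 6 Kupffer cell markers 4 rose and 2 were not called, and of 5 sinusoidal endothelial markers 4 rose. The remaining endothelial marker, Pecam1, fell from -0.34 and -1.02 to -3.26 and -3.13 (log2 change -2.52). Of 4 biliary markers, Krt19, Krt7 and Epcam were not above background on either slide and Sox9 rose at least 4.43-fold at 1 month.

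The first comparison asked how far the conjugating enzymes had moved from the Lin- cell 1 month after transplantation. Detection already differed, as 26 of 46 members were detected on both Lin- arrays and 41 of 46 on both 1-month arrays, against 53.8% and 45.8% of all genes. In Lin- cells the detected members were mainly Gst genes (16 of 20) and all 3 Mgst genes, with 1 of 4 Ugt1, 1 of 8 Ugt2 and 5 of 11 Sult genes. At 1 month these counts were 19 of 20 Gst, 3 of 3 Mgst, 3 of 4 Ugt1, 8 of 8 Ugt2 and 8 of 11 Sult genes.

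Of 42 members tested, 37 rose at 1 month (adjusted p under 0.05 and log2 change beyond 0.6, limma), where 28.8% of all 28679 genes tested were called higher. Only 1 member, Mgst2, fell, where 26.5% of all genes were called lower. The members' median log2 change was 6.73, against 0.0613 over all genes, and it was 6.23 with the 13 members that were undetected in Lin- cells set at their lower bound. In bulk RNA, fewer cells of a type and less RNA per cell cannot be told apart, and a member passing the filter through 1 group alone had to differ. Among the members that rose, this covers the 13 undetected in Lin- cells. It also covers Gsta1, Sult1d1 and Ugt2b37, which were detected on 1 Lin- array only. Fewer members could be tested where detection was asked on every array (22 higher of 25) or where only probes of both designs were used (21 higher of 24). The share of all genes called higher is not given here for either setting, and 28.8% is not that share.

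**Figure D1:**
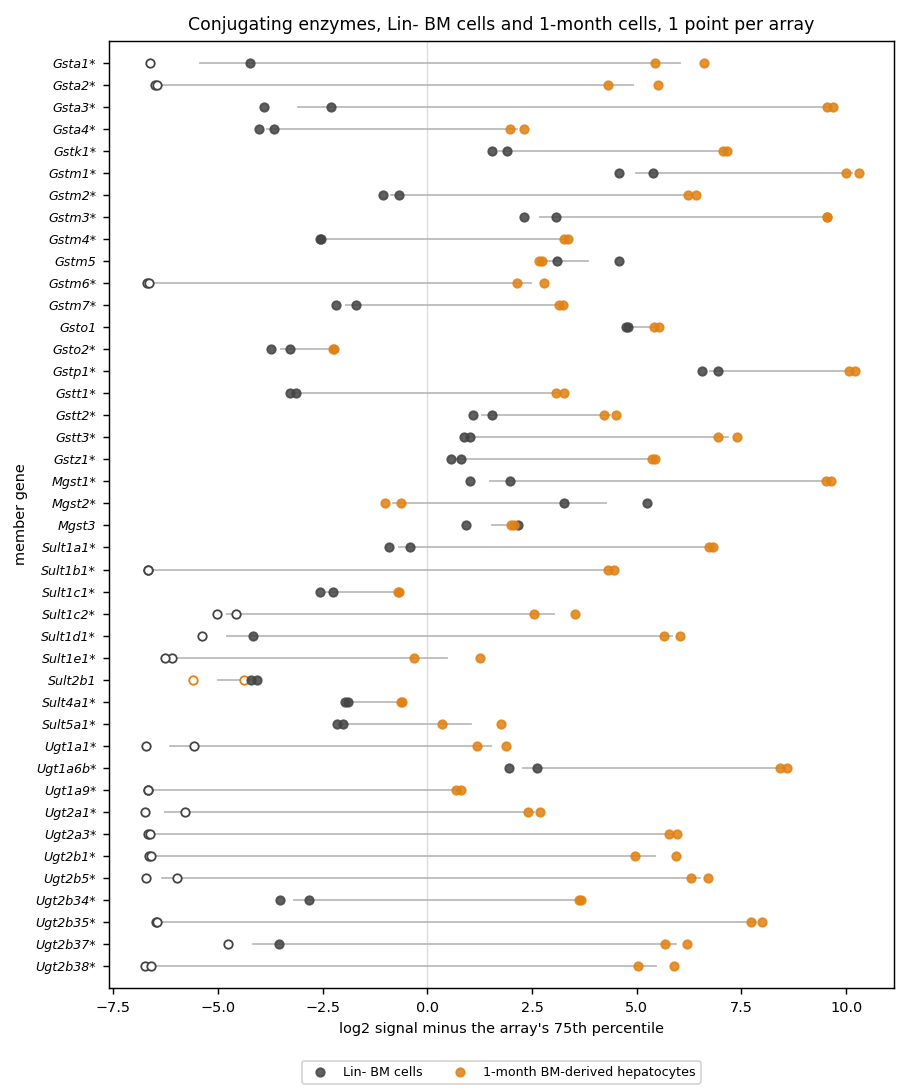
Levels of the 42 members tested in Lin- BM cells and 1-month BM-derived hepatocytes, with 1 point per array on a log2 scale relative to the array's 75th percentile, open points not well above background, lines joining the group means and an asterisk for a called member. Most 1-month points lie right of the Lin- points by several log2 units, Mgst2 lies the other way, and Gsto1, Mgst3 and Gstm5 have levels above 0 on all 4 arrays.

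The Ugt2 family stood at the upper end, with 8 of 8 members higher and a median change of 12.1 (10.02 with 6 members at their bounds). All of them but Ugt2b34 passed the filter through the 1-month group alone and had to differ. Ugt2 enzymes glucuronidate steroids, bile acids and many drugs. Ugt2b35 was at -6.48 and -6.46 in Lin- cells, undetected on both arrays, and at 7.73 and 7.99 in 1-month cells. The groups were far apart and each pair of arrays was close, and the rise was at least 5246-fold (log2 change 14.33 ± 0.27 SE, adjusted p = 6.02e-05). The dimmer Ugt2b35 probe rose at least 1816-fold. Ugt2b5 went from undetected levels of -6.70 and -5.98 to 6.31 and 6.71, a rise of at least 2056-fold. For Ugt2a3, levels went from -6.67 and -6.63 to 5.78 and 5.96, a rise of at least 1319-fold. Ugt2b38 and Ugt2b1 were likewise undetected in Lin- cells and rose at least 994-fold and 980-fold. Ugt2b37 was read by 2 probes, of which the one shared with Ugt2b36 was undetected in Lin- cells and rose at least 2879-fold, and its own, detected on 1 Lin- array, rose by 10.09 on the log2 scale. Ugt2b34 was the only Ugt2 member detected on both Lin- arrays, at -2.83 and -3.53, and it reached 3.62 and 3.66.

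These genes lie together. In the coordinates of the array files, chr5:87318849-88005246 (NCBI37/mm9) held 12 members, which were 9 Ugt2 genes followed by Sult1b1, Sult1d1 and Sult1e1. Of these 12, 11 were tested under their own name at 1 month and all 11 rose. Only Ugt2b34 among them was detected on both Lin- arrays. The others passed the filter through the 1-month group alone and had to differ. Of the 7 Gstm genes at chr3:107701101-107846847, 6 rose and Gstm5 did not pass the test. Gstm1 was read by 2 probes on the first slide, of which the brighter rose by 5.16 and the other by 7.67. The files give no place for these probes, and on the second design the brighter Gstm1 probe, of another sequence, was placed on chromosome 5 at 117082490 to 117082549.

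Among the Ugt1 members 3 of 3 tested rose. The probe at the shared end, which reads the whole group, was detected in Lin- cells at 2.61 and 1.95 and reached 8.60 and 8.42, a log2 change of 6.23 ± 0.33 SE. Probes that listed a single Ugt1a gene were undetected in Lin- cells. Ugt1a1, the enzyme that conjugates bilirubin, was at -5.58 and -6.72 and then at 1.87 and 1.20, a rise of at least 65.3-fold. Ugt1a9 went from -6.68 on both arrays to 0.81 and 0.67, at least 37.8-fold.

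Within the Gst family 17 of 19 tested members rose, and the median change was 5.87. In the alpha class, Gsta3 stood at -2.31 and -3.89 in Lin- cells and at 9.55 and 9.69 in 1-month cells (log2 change 12.72 ± 0.56 SE, adjusted p = 0.000217). Gsta1 was detected on 1 Lin- array at -4.23 and undetected on the other at -6.62, and reached 5.43 and 6.62. This probe also listed the neighbouring gene model Gm10639. Gsta2 was undetected at -6.50 and -6.45 and reached 4.33 and 5.51, at least 683-fold higher.

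The other Gst classes covered a wide range. Gstm6 rose at least 125-fold from undetected levels, Gstt1 went from -3.12 and -3.27 to 3.26 and 3.08, and Gstk1, found in mitochondria and peroxisomes, went from 1.89 and 1.54 to 7.15 and 7.06. Gstz1, which isomerizes maleylacetoacetate in tyrosine breakdown, went from 0.55 and 0.81 to 5.44 and 5.37. The brighter Gstp1 probe, which also listed Gstp2, was already among the high levels of Lin- cells at 6.56 and 6.94. It still rose to 10.06 and 10.22, by 3.39 ± 0.29 SE. The probe that listed Gstp1 alone was dimmer and rose by 4.09 ± 0.34 SE. Relative to the shared probes, its Lin- levels were 2.06 and 2.38. Gsto2 made the smallest called rise of the family, 1.26 ± 0.29 SE, and lost its call without Lin- replicate 4 or without either 1-month array (log2 change 1.03 to 1.26). The remaining 2 members were not called. Gsto1 was at 4.79 and 4.75 and then at 5.53 and 5.42 (adjusted p = 0.0667), and Gstm5 was at 3.11 and 4.57 and then at 2.75 and 2.67 (adjusted p = 0.129, and -1.86 with adjusted p = 0.0211 without Lin- replicate 3).

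The 3 Mgst genes went 3 ways. Mgst1, an abundant glutathione transferase of the endoplasmic reticulum and outer mitochondrial membrane in liver, rose from 1.98 and 1.02 to 9.64 and 9.53 (log2 change 8.09 ± 0.40 SE). Mgst2, which can form leukotriene C4 from leukotriene A4, fell from 5.26 and 3.27 to -1.01 and -0.62 (log2 change -5.08 ± 0.69 SE, adjusted p = 0.00426). It was still detected on both 1-month arrays, and the groups did not overlap, although the Lin- arrays differed from each other by 1.99. Its fall lost significance in the methods' test after adjustment and ranged from -6.07 to -4.08 with 1 array left out. Mgst3 was at 0.93 and 2.17 and then at 1.998 and 2.06, with overlapping groups (adjusted p = 0.414). Of the 8 blood progenitor and leukocyte markers 7 fell on the same arrays, with a median change of -6.76 over the 8, and their part in the fall of Mgst2 was not tested.

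Of 9 Sult members tested, 8 rose, by a median over the family of 6.65 (4.97 with 3 members at their bounds). Sult1b1, which sulfates thyroid hormones and small phenols, was undetected in Lin- cells at -6.67 and -6.68 and reached 4.31 and 4.46, at least 472-fold higher (adjusted p = 6.26e-05). The dimmer Sult1b1 probe rose at least 68.9-fold. Sult1d1, which sulfates catecholamines and other amines, went from -5.39 and -4.16, with only the second array detected, to 5.66 and 6.02. Sult1a1, the main phenol sulfotransferase, went from -0.41 and -0.93 to 6.73 and 6.82. Sult5a1 rose less evenly, from -2.02 and -2.15 to 0.34 and 1.75, and Sult4a1 rose by 1.31 ± 0.25 SE but lost its call when either 1-month array was left out (log2 changes 1.33 and 1.29). Sult2b1, a cholesterol sulfotransferase best known from skin, was the member detected in Lin- cells (-4.06 and -4.20) and on neither 1-month array (-5.59 and -4.39). It was not called in the main fit (adjusted p = 0.170), was called lower without 1-month replicate 2 (log2 change -1.46) and was called higher, at 0.602, under the normexp background correction.

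Of the first design, 4 members were not tested. Gstt4, Sult6b1 and the probe named Ugt1a@ were detected on no array of the slide. Sult3a1, a sulfotransferase known for its higher expression in female than in male mouse liver, was read by 2 probes, and both were detected in 1-month replicate 1 (levels -2.87 and -1.53) and in no other array of the slide, with -5.66 and -3.81 in replicate 2.

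Genes that feed and follow these reactions moved alongside. All 3 genes of UDP-glucuronate supply rose, Ugdh by 4.42, Slc35d1 by 3.54 and Ugp2 by 3.35. Of the PAPS genes 2 of 4 rose, with Papss2, the PAPS synthase typical of liver, at 4.18, while Papss1 was at -0.49 and not called. Of 5 tested genes of glutathione supply, 3 rose, among them Gclc, the catalytic subunit of the rate-limiting enzyme, by 2.55. Other conjugating enzymes were higher in 12 of 13 cases, among them Gnmt by 11.7 and Baat, which conjugates bile acids with taurine and glycine, at least 2150-fold. Conjugate export split. Abcc2, the canalicular pump, rose at least 193-fold and Abcc3, its basolateral relative, rose by 8.85, whereas Abcc1, the pump of many other cell types, fell by 5.82.

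Several transcription factors known to act on these promoters rose as well. Nr1i2 (PXR) rose at least 155-fold, Hnf4a by 7.14, Nr1i3 (CAR) by 5.88 and Ahr by 4.97. Nfe2l2 (Nrf2) and its inhibitor Keap1 were not called, with changes of -0.17 and -0.05.

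The second comparison set the 5-month cells against primary hepatocytes on the other slide, and asked how close the conjugating enzymes of the later cells were to the hepatocyte. Both groups detected 40 of 52 members on both arrays, and in the same counts for each family, namely 19 of 20 Gst, 2 of 3 Mgst, 3 of 3 Ugt1, 8 of 9 Ugt2 and 8 of 17 Sult genes. Of 40 members tested, limma called 0 higher and 0 lower, where 0.366% of all 19953 genes tested were called higher and 0.185% lower. At an unadjusted p under 0.05 in limma there were 8 of 40 members (20%) against 14.1% of all genes. The methods' test at that level gave 1 higher and 4 lower, and its share over all genes is not given here. The median change of the members was 0.0894, against 0.0356 over all genes. With 2 arrays a group, a missed threshold does not show that levels were alike, and the median difference between the 2 arrays of a group was 0.279 for primary hepatocytes and 0.222 for 5-month cells over detected member probes.

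**Figure D2:**
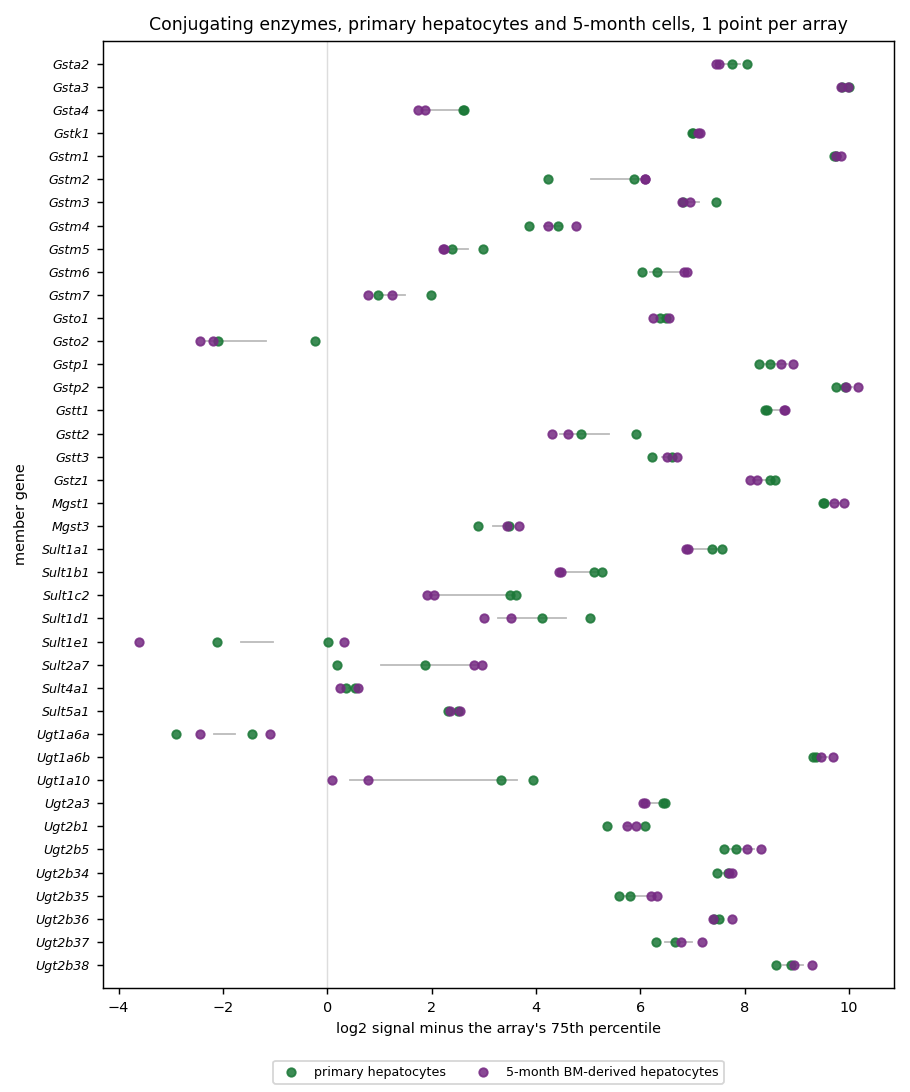
Levels of the 40 members tested in primary hepatocytes and 5-month BM-derived hepatocytes, with 1 point per array on a log2 scale relative to the array's 75th percentile and lines joining the group means. In 30 of 40 members all 4 points lie within 1 log2 unit, and the widest gaps between groups are those of Ugt1a10, Sult2a7, Sult1c2 and Sult1d1.

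The abundant Gst and Ugt2 members had close levels in both groups. Gsta3 was at 9.87 and 9.99 in primary hepatocytes and at 9.86 and 9.99 in 5-month cells, a difference of -0.01 ± 0.20 SE whose sign turned under several settings. Gstm1 was at 9.71 and 9.75 against 9.75 and 9.85, Mgst1 at 9.53 and 9.50 against 9.71 and 9.91, and Ugt2b1 at 5.36 and 6.08 against 5.74 and 5.92. The signs of the Gstm1 and Ugt2b1 differences also turned under other settings. Over the 8 tested Ugt2 members the changes ran from -0.39 to 0.56 with a median of 0.262, and the highest was Ugt2b35 at 5.79 and 5.60 against 6.20 and 6.31 (adjusted p = 0.356). Over the 19 Gst members they ran from -1.15 to 1.04 with a median of -0.01. The ends of this range were genes whose primary arrays differed, as Gsto2 was at -0.24 and -2.10 and Gstm2 at 4.23 and 5.88 on the primary arrays, against -2.45 and -2.19 and 6.08 and 6.10 in 5-month cells. By contrast, Gsta4 and Gstm6 had closer arrays and an unadjusted p under 0.05 in limma, 10.5% of Gst members against 14.1% of all genes. Gsta4 was at 2.60 and 2.62 against 1.75 and 1.88 in 5-month cells (adjusted p = 0.235). Gstm6 was at 6.33 and 6.02 against 6.89 and 6.85 (adjusted p = 0.305).

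Over the 8 tested Sult members the median change was -0.588, and 5 of the 8 had an unadjusted p under 0.05, none with an adjusted p under 0.05. Sult1c2 was at 3.62 and 3.50 in primary hepatocytes and at 1.91 and 2.04 in 5-month cells (log2 change -1.59 ± 0.20 SE, adjusted p = 0.0855). Sult1d1 was at 4.12 and 5.04 against 3.01 and 3.53, Sult1b1 at 5.10 and 5.26 against 4.45 and 4.48, and Sult1a1 at 7.38 and 7.56 against 6.92 and 6.87. The log2 changes of these other three, in this order, were -1.31, -0.72 and -0.58. Sult2a7 differed in the other direction, from 1.86 and 0.18 to 2.81 and 2.97 (adjusted p = 0.310). Sult4a1 and Sult5a1 differed by -0.03 and 0.04, with signs that turned when single arrays were left out. These genes were singled out after their values were seen. The 6 Kupffer cell markers moved along on the same arrays, from mean levels of 0.72 and 2.01 in primary hepatocytes to 3.09 and 2.99 in 5-month cells with 0 of 6 called, and their part was not tested.

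The widest difference of any tested member was at Ugt1a10, a Ugt1a form read upstream of the shared exons and likewise singled out after its values were seen. Its brighter probe was at 3.94 and 3.34 in primary hepatocytes and at 0.08 and 0.78 in 5-month cells (log2 change -3.21 ± 0.37 SE, adjusted p = 0.0715). The second Ugt1a10 probe was at -1.48 and -1.87 in primary hepatocytes and was undetected in 5-month cells at -4.47 and -3.58, at least 4.50-fold lower (adjusted p = 0.110 with all probes tested singly). On both probes all 5-month values were below all primary values. A Ugt1a6b probe at chr1:90004249-90004308, which listed that gene alone, was at 1.52 and 0.73 against -0.46 and 0.19, also lower on both 5-month arrays (log2 change -1.26, adjusted p = 0.280). The probe at the shared end, from which the brighter Ugt1a10 probe lay at -162713 bases, stood at 9.32 and 9.37 against 9.47 and 9.70, a change of 0.24 ± 0.22 SE. The last probe, named Ugt1a6a with 4 genes listed, was at -2.90 and -1.45 against -1.09 and -2.45, with overlapping groups.

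**Figure D3:**
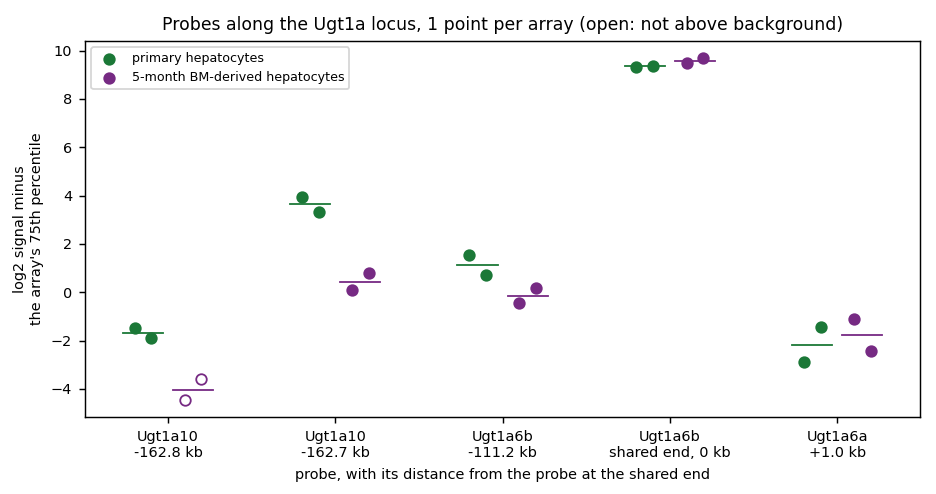
Levels of 5 probes along the Ugt1a locus in primary hepatocytes and 5-month cells, 1 point per array with lines at the group means, on a log2 scale relative to the array's 75th percentile, and the distance of each probe from the one at the shared end. Both Ugt1a10 probes and the upstream Ugt1a6b probe have 5-month points below the primary points, while the shared-end probe has all 4 points between 9.32 and 9.70.

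Whether Ugt1a10 and Sult1c2 count as changed depended on single arrays and on the background correction. Under normexp correction both were called lower (log2 changes -2.83 and -1.47, adjusted p = 0.0253 and 0.0265). Without primary replicate 2, 4 members were called lower and 1 higher, which were Ugt1a10, Sult1c2, Sult1d1 and Gstt2 lower and Sult2a7 higher. Without primary replicate 4, Ugt1a10, Sult1c2, Gsto2 and Sult2a6 were lower and Gstm2 higher. Sult2a6 was detected on 1 primary array only and on no 5-month array. It thus passed the filter there through that array alone and had to be lower. These fits assume that the lone primary array varies like the other group, and they called 664 and 601 genes lower over the whole slide. Without either 5-month array 0 members and 0 genes of the slide were called.

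Of the second design, 12 members were not tested for lack of detection, and 9 of these were Sult genes. Sult2a1, which sulfates bile acids and steroids and is known for female-biased expression in mouse liver, was undetected on all 4 arrays, at -4.83 and -4.78 in primary hepatocytes and -6.24 and -5.33 in 5-month cells. Its probe also listed Sult2a4. Sult3a1 was undetected in both primary arrays at -6.63 and -6.28 and in 5-month replicate 3 at -6.05, but stood at 0.07 in 5-month replicate 1. Thus on each slide Sult3a1 was detected in 1 array of the BM-derived cells. Sult1e1, the estrogen sulfotransferase, was detected on all 4 arrays but spread widely, with -2.11 and 0.01 in primary hepatocytes and 0.32 and -3.62 in 5-month cells. Mgst2 was detected only in 5-month replicate 1, at -2.69, against -4.34 in replicate 3 and -4.60 and -4.33 in primary hepatocytes.

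Beyond the members, 0 genes were called in the lists of glutathione, UDP-glucuronate and PAPS supply, other conjugating enzymes, deconjugating enzymes, transcription factors and conjugate export at 5 months. Among the transcription factors, Hnf4a was at 7.97 and 8.42 in primary hepatocytes against 8.31 and 8.36 in 5-month cells. The widest gap in these lists was at Nnmt, which methylates nicotinamide, at -0.52 and 2.84 against 4.71 on both 5-month arrays (adjusted p = 0.311).

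Probes of identical sequence placed the 4 groups on 1 scale, here relative to the 75th percentile of the 13991 shared probes. Between primary hepatocytes and Lin- cells 21 of 24 tested members were higher, where 29.3% of all 9235 genes tested were called higher, and 2 were lower, where 38.1% were called lower. Their median change was 5.94 (5.73 with 9 members at their bounds) against -0.293 over all genes. The 2 lower members were Mgst2 and Gstm5, the latter at 1.28 and 0.73 against 1.73 and 3.05 in Lin- cells (log2 change -1.38, adjusted p = 0.0281). Gstm5 lost its call under the authors' values and without Lin- replicate 4 or primary replicate 4, which left 1 lower member. Of the 5 tested Ugt2 genes, 4 were at least 1613-fold higher, and the last, Ugt2b37, was detected on 1 Lin- array and higher by 10.39.

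Of the same 24 members, 4 were higher in 1-month cells than in primary hepatocytes, where 11.6% of all genes were called higher, and 0 were lower, where 5.08% were. The count of 0 lower was that of limma's adjusted test. At an unadjusted p under 0.05 in limma, 2 of the 24, Gsto1 and Sult4a1, had a negative change. In either direction 29.2% of members passed that level, against 32.3% of all genes. The methods' test at that level also gave 2 lower, and its share over all genes is not given here. The median change was -0.197 against 0.175 over all genes. Sult2a7 was at 3.16 and 2.21 at 1 month and at 0.16 and -1.49 in primary hepatocytes (log2 change 3.35 ± 0.70 SE, adjusted p = 0.0245). Gstt3 was at 5.95 and 5.56 against 4.91 and 4.55 (log2 change 1.02 ± 0.25 SE, adjusted p = 0.0365). Ugt2b35 was at 4.70 and 5.12 against 4.09 and 3.93 (log2 change 0.90 ± 0.23 SE, adjusted p = 0.0451).

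Mgst2 showed an order over the groups. It stood at 3.88 and 1.75 in Lin- cells, at -2.46 and -2.01 in 1-month cells, at -4.31 and -6.01 in 5-month cells with only the first detected, and at -6.30 and -6.00 in primary hepatocytes, where it was undetected. Lin- cells were at least 443-fold above primary hepatocytes (adjusted p = 0.000105) and 1-month cells at least 13.4-fold (log2 change 3.92 ± 0.79 SE, adjusted p = 0.0219). The step from 1 month to 5 months was -2.93 ± 0.79 SE and did not pass the test (adjusted p = 0.0503), and the 5-month and primary values overlapped. Slide and design changed between these steps and cannot be told apart from the group.

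These 4 calls were not stable to single arrays. Without primary replicate 2 only Sult2a7 kept its call, at 4.17, and without primary replicate 4 none of them did, with Gstm2 called instead at 2.37. Without 1-month replicate 1 or 2, 0 members were called higher, while 720 and 429 of all genes were, and without replicate 2 Sult5a1 was called lower, at -1.83. Taking the 75th percentile over all probes of each design in place of the shared ones left 2 members higher, Mgst2 and Sult2a7, and called Gsto1 and Sult4a1 lower.

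Between 5 months and 1 month, limma called 0 of 24 members in either direction, where 5.8% of genes were called higher and 11.3% lower. Here 9 members (37.5%) had an unadjusted p under 0.05 in limma, against 34.7% of all genes. The methods' test at that level gave 2 higher and 1 lower, and its share over all genes is not given here. The median change of the members was 0.0255 against -0.146 over all genes. Those that came closest were Mgst2, Sult1c2 at 2.07 and 1.15 and then 0.29 and 0.37 (log2 change -1.28, adjusted p = 0.0558), and Sult4a1 at -2.08 and -1.98 and then -1.39 and -1.08 (log2 change 0.80, adjusted p = 0.0558). Without 1-month replicate 2, Sult5a1 alone was called higher, at 1.91. Sult1e1 had no settled level, with 1-month values of -0.18 and -1.72 and 5-month values of -1.30 and -5.29.

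**Figure D4:**
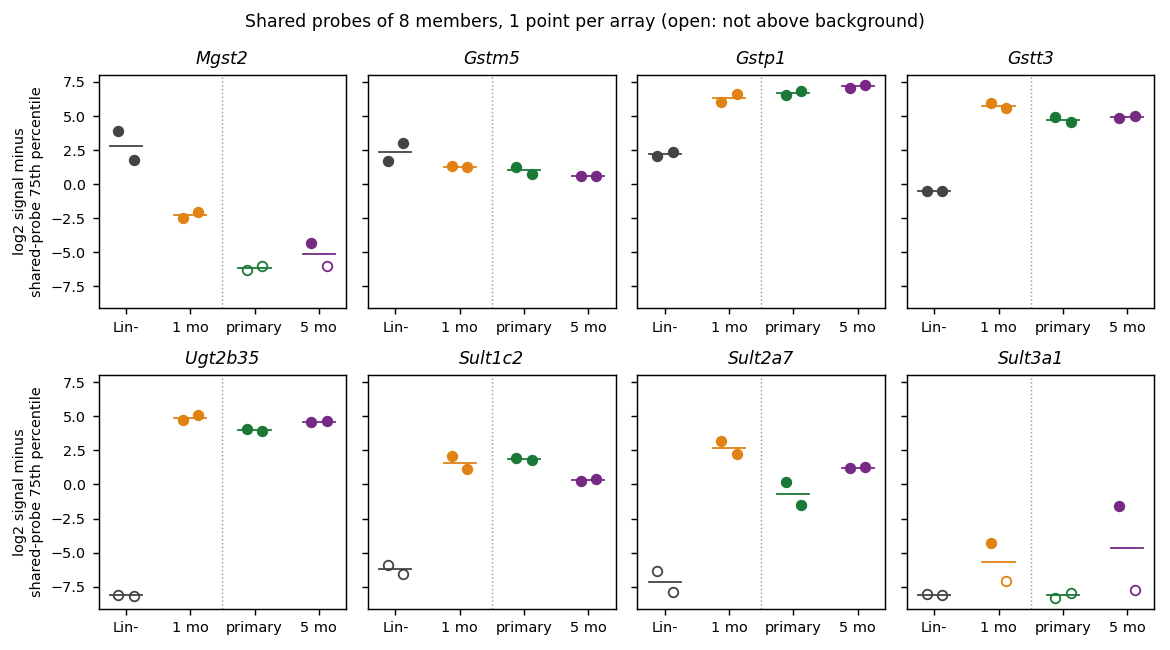
Levels over the 4 groups for 8 members read by probes of identical sequence on both designs, 1 point per array, on a log2 scale relative to the 75th percentile of the shared probes, with open points not well above background. Mgst2 and Gstm5 are highest in Lin- cells, Gstp1, Gstt3, Ugt2b35, Sult1c2 and Sult2a7 are lowest there, Sult3a1 is detected on 1 array of each BM-derived group, and Lin- and 1-month arrays were on 1 slide and the other groups on another.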

How the data were processed

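RNA of 8 samples was labelled with Cy3 from the poly(A) end and hybridised to single-colour Agilent arrays of 2 designs. The authors deposited the scanner output of each array, in which Feature Extraction 11.5.1.1 gives the processed signal intensity of each spot, per the file headers after background subtraction. The deposited series tables hold log2 values that the authors had shifted to the 75th percentile, and they equalled the log2 intensity minus a constant within 0.02 for nearly all probes. They served as an alternative.

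From the intensities, log2 levels were taken minus the 75th percentile of all non-control probes of an array, or of shared-sequence probes between slides. Spots flagged as outliers were left out and spots of a probe averaged. A gene was tested through its brightest probe if 1 group or more had both of its arrays detected there. Groups were compared with lmFit and eBayes of limma 3.58.1 (R 4.3.3), within a slide over its 2 groups and between slides in 1 fit over 4 groups, and p-values were adjusted over every tested gene (Benjamini-Hochberg). A gene was called where the adjusted p was below 0.05 and the log2 change exceeded 0.6 in size, the limit used in the study. A fold against a group with no array above background is a lower bound. It sets the mean of the bright group against the lowest signal among probes well above background, or the signal of the probe itself where that is higher. The fit was tested on simulated data with known changes. With 2 arrays a group, an exact two-sided permutation test of 1 gene cannot go below p = 0.33, so tests rest on the spread shared across genes. P-values measure the spread between arrays of pooled RNA. The number of arrays limits the precision.

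Members and gene lists were chosen with earlier results of these data known. Genes were named where called in the comparison of 5 months with primary hepatocytes or between slides, where they had the largest changes at 1 month or the largest of their class, and where they are well-known members (Gsta1, Gsta2, Gstm1, Gstp1, Sult2a1, Sult3a1). Others were singled out after their values were seen. Marker and pathway lists were those of hepatocytes, blood cells, Kupffer cells, endothelium, biliary and stellate cells, cofactor supply, other conjugating enzymes, deconjugation, transcription factors and export. Of the stellate list 2 of 3 tested genes rose at 1 month and 0 of 3 were called at 5 months. Of the deconjugating enzymes 3 of 4 rose at 1 month and Gusb fell by 1.24. Gene names are those of the array designs. Between slides, 5 names of the first design were replaced by the member name that the same sequence has on the second. Within the first slide its own names were kept, so the Sult2a3 and Sult2a7 sequences were not counted as members there. Alternatives were normexp background correction with an offset of 50, quantile normalization, the authors' values, other filters, the mean of all probes, the methods' t-test, another percentile and leaving out each array. Some items of the lists and labels are not reported here.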

Additional observations from a re-analysis of the deposited data

How the results depend on the processing

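Of the values of named genes recomputed under each alternative, 563 kept their direction and side of the threshold, 9 lost a call, 6 gained one and 15 changed sign. Leaving out 1 array gave 35 to 37 members higher and 1 to 2 lower at 1 month against Lin- cells, 0 to 1 higher and 0 to 4 lower at 5 months against primary hepatocytes, 20 to 22 higher and 1 to 2 lower in primary hepatocytes against Lin- cells, 0 to 1 higher and 0 to 1 lower at 1 month against primary hepatocytes, and 0 to 1 higher and 0 lower at 5 months against 1 month. For 1 month against Lin- cells, detection on every array gave 22 higher, the fit over 4 groups 21 higher, and the methods' t-test after Benjamini-Hochberg 0 lower. For 5 months against primary hepatocytes, normexp gave 2 lower, and the methods' t-test without adjustment 1 higher and 4 lower. For primary hepatocytes against Lin- cells, detection on every array gave 12 higher and 1 lower, the authors' values, the percentile over all probes and the unadjusted methods' t-test 1 lower, and the adjusted one 0 lower. For 1 month against primary hepatocytes, the members higher and lower were 2 lower with normexp, 2 higher with quantile normalization, 2 and 2 with the authors' values, 7 and 1 with no filter, 1 and 2 with the unadjusted methods' t-test, 0 higher with the adjusted one, and 2 and 2 with the percentile over all probes. For 5 months against 1 month they were 4 and 2 with normexp, 1 and 1 with quantile normalization, 4 higher with the authors' values, 2 and 1 with detection on every array, 2 and 1 with the unadjusted methods' t-test, and 3 higher with the percentile over all probes. Fewer members were tested with detection on every array and in the fit over 4 groups, and otherwise the cause was not tested. The shares of all genes called under these alternatives are not given beside these counts.

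The sign changed for Sult2b1 at 1 month with normexp (0.602). At 5 months against primary hepatocytes it changed for Gsta3 with normexp (0.00496), the mean of probes (0.0538) and the fit over 4 groups (0.0305), and its values ran from -0.0769 to 0.0547 with 1 array left out. Gstm1 changed sign with quantile normalization (-0.0854) and the mean of probes (-0.134), and Sult4a1 in the fit over 4 groups (0.0162). With 1 array left out, the changes ran for Ugt2b1 from -0.252 to 0.472, for Sult4a1 from -0.204 to 0.153, for Sult5a1 from -0.0639 to 0.143, for Gstt3 from -0.00235 to 0.383. No paired analysis was possible because the groups compared share fewer than 2 replicate numbers. Dim signals limit the undetected members to bounds.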
